A study of Mus musculus with 12 samples.

Results

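The 8 genes described here encode the enzymes that consume tryptophan along the kynurenine pathway, together with the enzyme that loads tryptophan onto its tRNA. They are Ido1, Ido2, Tdo2, Afmid, Kmo, Kynu, Haao and Wars. They were taken by symbol from a table of 55401 mouse genes, and the set was selected on counts of the same tumors, in particular on the difference between the ASC_As300 and ASC groups. That difference is therefore given below as a description without a test, and the tests against Control and As300 share the ASC and ASC_As300 tumors with it, so that their p-values are not independent of the choice. All 8 genes passed the filter on low counts, which kept 20818 genes.

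RNA was sequenced from 12 tumors of TC2Ras cells, a mouse prostate cancer cell line, 21 days after 125000 cells were placed under the skin of the flanks. Tissue from the left and right flanks of a mouse was combined, and each of 4 groups held 3 libraries. Control tumors grew from TC2Ras cells alone in mice drinking water with 0 ppb inorganic arsenic (iAs), and ASC tumors grew at 0 ppb from TC2Ras cells mixed with 1% adipose stromal cells (ASC). As300 tumors grew from TC2Ras cells alone in mice drinking 300 ppb iAs, and ASC_As300 tumors from the mixture at 300 ppb. All mice had low-arsenic purified chow and purified water for 2 weeks before implantation, and the ASC came from mice that carry a GFP transgene. The strain, sex and age of the host mice were not given in the sources used here. The share of ASC still present at 21 days was not analysed here. The labels give the cell type of every library as adipose stromal cells, while the protocol describes whole tumors, and the 7 fibroblast and ASC markers summed to between 3638 and 6109 CPM (counts scaled to library size) in the 12 tumors, with Control tumors at 3667 to 4541.

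Total counts ran from 39157647 to 55168642 per tumor. A count of 12 or less was treated as at the limit of detection, because low counts were most frequent at multiples of 4, and 12 would then be 3 read pairs. This limit covers counting error only. Control replicate 1 stood apart from the other tumors. Its B and plasma cell markers summed to 211.9 CPM against 2.33 to 16.0 CPM in the other 11 tumors, and its tumor epithelial markers to 361.0 CPM against 25.5 to 117.5 CPM. In bulk tissue, fewer cells of a type and less RNA per cell cannot be told apart.

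Tryptophan is opened to N-formylkynurenine by IDO1, IDO2 or TDO2, and the formamidase encoded by Afmid releases kynurenine. KMO, KYNU and HAAO carry kynurenine on toward quinolinate and NAD. IDO1 is induced by interferon gamma in dendritic cells, macrophages and tumor cells, where tryptophan loss and kynurenine are known to restrain T cells, whereas TDO2 is foremost a liver enzyme. WARS is the cytoplasmic tryptophanyl-tRNA synthetase and is itself an interferon gamma-inducible gene.

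Ido1 (ENSMUSG00000031551) and Ido2 (ENSMUSG00000031549) are neighbours on the minus strand of chromosome 8. In the GRCm38 build with the GENCODE M21 annotation, Ido1 lies at chr8:24584136-24597009 and Ido2 at chr8:24531892-24576333, with 7802 bases between them. Their annotated coding sequences have 1221 and 1215 bases. Since both genes moved in these tumors, their similarity bears on whether reads could be shared between them. The coding sequences were identical at 740 of 1157 aligned bases, or 64.0%, and the longest identical run was 15 bases. The 75 bases around that run, coding bases 208 to 282 in exon 3 of either gene, are given here 5′ to 3′ on the gene's strand, with the shared run in capitals. The stretch of Ido1 is at chr8:24593126-24593200 and that of Ido2 at chr8:24553754-24553828.
Ido1: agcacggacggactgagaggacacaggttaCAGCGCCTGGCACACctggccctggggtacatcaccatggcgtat
Ido2: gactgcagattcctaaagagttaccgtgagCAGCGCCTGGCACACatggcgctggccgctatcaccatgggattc

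Ido1 was close to the limit of detection in every tumor without ASC and clearly counted in every tumor with ASC. The 3 Control tumors had 14, 14 and 13 counts, and the 3 As300 tumors 0, 9 and 6. The 3 ASC tumors had 158, 90 and 53 counts, and the 3 ASC_As300 tumors 273, 186 and 274. All 6 tumors with ASC were above all 6 without, as they were for 1.68% of all genes tested. Scaled to depth, the ASC tumors were at 3.20, 2.41 and 1.24 CPM (mean 2.28 ± 0.988, SD, n = 3) and the ASC_As300 tumors at 5.08, 3.67 and 5.42 CPM (4.73 ± 0.926). Control tumors were at 0.289, 0.269 and 0.282 CPM (0.280 ± 0.0105) and As300 tumors at 0, 0.184 and 0.106 CPM (0.0966 ± 0.0924). The order of the group means was thus As300, Control, ASC and ASC_As300. The As300 tumors lay below the Control tumors without overlap, as for 15.4% of all genes tested. The ASC_As300 tumors lay above the ASC tumors, as for 4.17%, and this is the step that the choice of genes used.

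**Figure D1:**
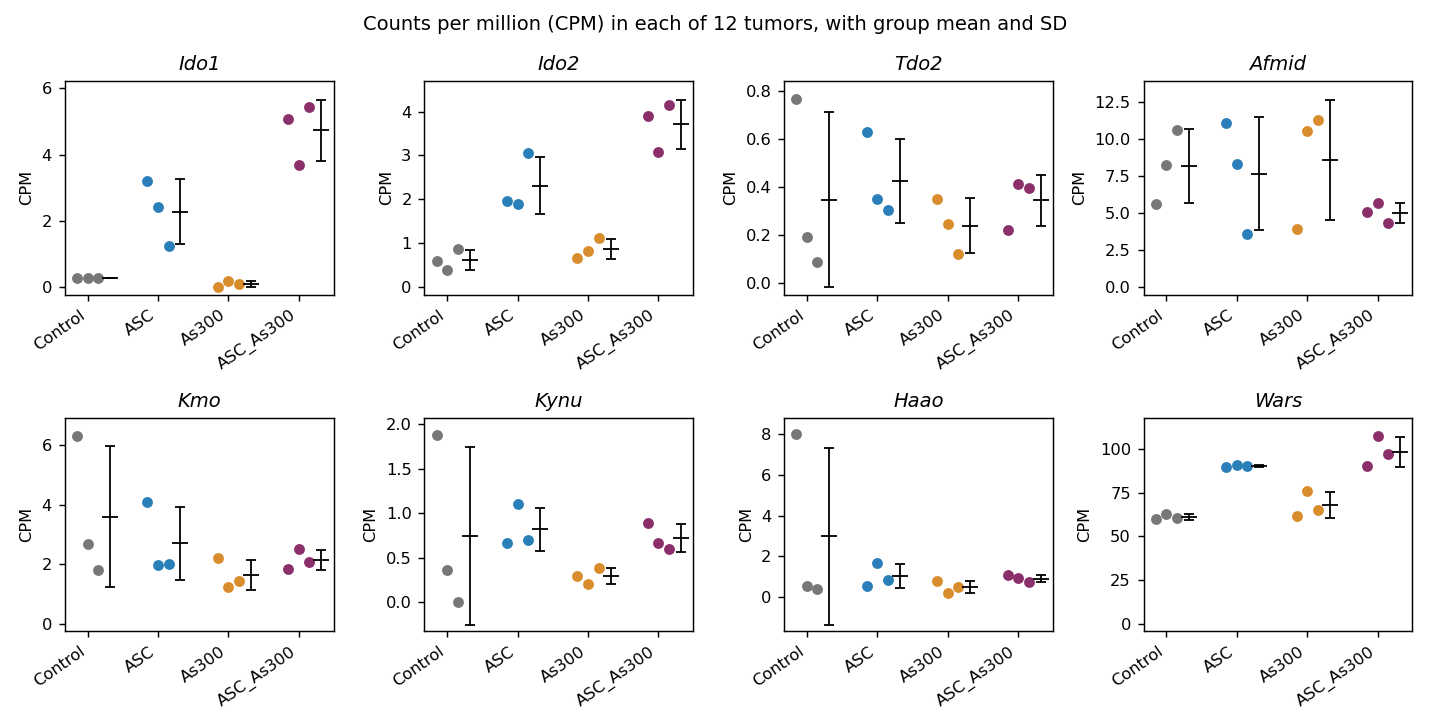
Level of each of the 8 genes in CPM (vertical axes, linear, each with its own range) in the 12 tumors by group; points are tumors, and the bar beside them is the group mean with 1 SD (n = 3). The 6 tumors with ASC lie above the 6 without for Ido1 (1.24 to 5.42 against 0 to 0.289 CPM), Ido2 and Wars, while the high points of Haao, Kynu, Kmo and Tdo2 in the Control panel are Control replicate 1.

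With ASC, averaged over both iAs levels, Ido1 rose by 4.27 on the log2 scale (SE 0.45, adjusted p = 0.000145 by the edgeR quasi-likelihood test with Benjamini-Hochberg adjustment), and by 3.57 when counts under 12 were set to 12. A gene counts as called here when its adjusted p is under 0.05 and its change is 1.5-fold or more. Of the 8 genes, 2 were called up by edgeR and by DESeq2, Ido1 and Ido2. None was called down by either (0 were lower at an unadjusted p under 0.05). Of all genes tested in this comparison, edgeR called 1.36% up and 0.0865% down. DESeq2 called 393 of 33928 genes up and 85 down. Ido1 had the 65th smallest p of the 20818 genes, and it was called in all 12 fits that left out 1 tumor. The averaged comparison holds the ASC and ASC_As300 tumors used in the choice of genes, so this rank and these calls are not independent of that choice. The ASC difference was also tested at each iAs level on its own. At 300 ppb the fitted difference between the ASC_As300 tumors, which also entered the choice of genes, and As300 was 5.52 (SE 0.67, adjusted p = 0.00108 by edgeR), and 4.22 with counts under 12 set to 12.

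At 0 ppb, Ido1 was higher in ASC than in Control by 3.02 (SE 0.59, adjusted p = 0.0359 by edgeR), and Ido2 passed as well, so that 2 of 8 genes were called where 0.706% of all genes were called up. These 2 calls stood near the threshold. Ido1 lost its call in 8 of 12 fits that left out 1 tumor, namely without Control replicate 1, 2 or 3, ASC replicate 2, As300 replicate 3, or ASC_As300 replicate 1, 2 or 3. Its difference was then between 2.98 and 3.05, with adjusted p between 0.0505 and 0.140. Ido2 lost its call without Control replicate 1 or 2, ASC replicate 3, or ASC_As300 replicate 1 or 3, at a difference between 1.63 and 1.90 and adjusted p between 0.0511 and 0.112. Wars, described below, was called in 2 of the 12 fits that left out 1 tumor. Over these fits the lowest and highest counts of called genes were 0 and 3 of 8.

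Ido2, the closest relative of Ido1 and an enzyme of weaker activity on tryptophan, followed the same split at a smaller size. Control tumors had 0.599, 0.403 and 0.868 CPM, and As300 tumors 0.676, 0.818 and 1.11 CPM. ASC tumors had 1.96, 1.90 and 3.05 CPM, and ASC_As300 tumors 3.89, 3.08 and 4.15 CPM. The lowest tumor with ASC, at 1.90 CPM, was above the highest without, at 1.11 CPM. The Control and As300 groups overlapped, while ASC and ASC_As300 did not. Averaged over both iAs levels Ido2 rose by 1.99 with ASC (SE 0.25, adjusted p = 0.000643 by edgeR). The difference was 1.89 between ASC and Control (adjusted p = 0.0272) and 2.09 between ASC_As300 and As300 (adjusted p = 0.0126), both by edgeR. In the latter comparison Ido1 and Ido2 were the 2 of 8 genes called, where 0.793% of all genes were called up. Ido2 lost that call without As300 replicate 1 or 2, or ASC_As300 replicate 1 or 3, at 1.94 to 2.04 with adjusted p between 0.0542 and 0.0792.

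Tdo2 (chr3:81957090-81976202, minus strand), the third enzyme of the first step, was at the edge of detection. It had 37, 10 and 4 counts in Control, 31, 13 and 13 in ASC, 14, 12 and 7 in As300, and 12, 21 and 20 in ASC_As300. All 4 groups overlapped, and Control replicate 1 was the highest of the 12 tumors at 0.765 CPM. With ASC the averaged difference was 0.41 (SE 0.55, adjusted p = 0.867 by edgeR). A difference in Tdo2 was not detectable at this depth. Hepatocyte markers, which would accompany liver tissue, summed to at most 6.83 CPM in any tumor, and 4 or 5 of the 8 were at 0 throughout a group.

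To compare the 3 first-step genes with each other, CPM were divided by the length of their merged exons in kilobases. The summed level of Ido1, Ido2 and Tdo2 was 0.308 to 0.520 CPM per kb in Control, 0.276 to 0.396 in As300, 1.60 to 2.45 in ASC and 2.97 to 4.21 in ASC_As300. The composition differed too. Ido1 made up 67.8% to 71.2% of this sum in the 3 ASC_As300 tumors, and 71.4%, 68.3% and 42.5% in ASC replicates 1, 2 and 3. It made up 30.5% to 47.9% in Control and 0% to 25.9% in As300. ASC replicate 3 was the tumor with ASC where Ido2 was the larger part, at 52.7%, and in As300 Ido2 made up 57.8% to 77.3%. Tdo2 reached 37.9% in Control replicate 1 and stayed between 1.47% and 6.59% in the 6 tumors with ASC. These shares rest on few counts in the tumors without ASC.

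**Figure D2:**
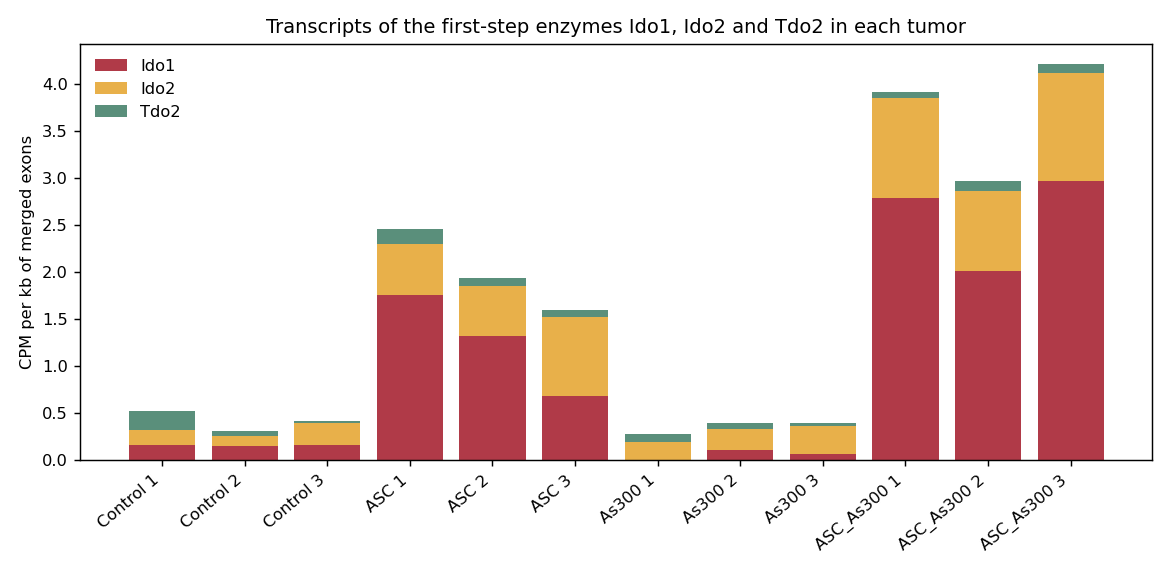
Stacked bars of the level of Ido1, Ido2 and Tdo2 in each tumor (vertical axis, CPM per kb of merged exons, from 0). The 6 bars with ASC reach 1.60 to 4.21 CPM per kb and the 6 without reach 0.276 to 0.520, and Ido1 is the largest part of the bar in every tumor with ASC except ASC replicate 3.

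Afmid (chr11:117825924-117839908, plus strand), which encodes the formamidase of the second step, was spread widely within groups. Control tumors had 5.64, 8.23 and 10.6 CPM, ASC tumors 11.1, 8.31 and 3.57 CPM, As300 tumors 3.93, 10.6 and 11.3 CPM, and ASC_As300 tumors 5.06, 5.69 and 4.33 CPM. All 4 groups overlapped, and the group means from 5.03 to 8.59 CPM differed by less than the spread between tumors. Afmid overlaps Gm20708, a protein-coding model on the same strand that shares 1566 of its exon bases, so reads from the shared part can be counted to either. Afmid also shares 83 exon bases with Tk1 on the opposite strand, which had 4028 to 6954 counts. The use of strand in counting was not given, and the part of Tk1 reads in the Afmid counts was not tested. Where Afmid was low, Gm20708 was high. In ASC replicate 3, for example, Afmid had 153 counts and Gm20708 421, while in ASC replicate 2 Afmid had 310 and Gm20708 26. Over the 12 tumors the coefficient of variation was 40.6% for Afmid, 64.8% for Gm20708 and 12.9% for their sum. The sum had group means of 11.5 ± 0.400 CPM in Control, 12.2 ± 2.75 in ASC, 12.1 ± 1.84 in As300 and 11.3 ± 0.880 in ASC_As300 (SD, n = 3). The averaged difference with ASC was -0.43 for Afmid (SE 0.30, adjusted p = 0.681) and -0.01 for the sum (SE 0.13, adjusted p = 0.995), both by edgeR. The sum was formed after the values were seen.

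**Figure D3:**
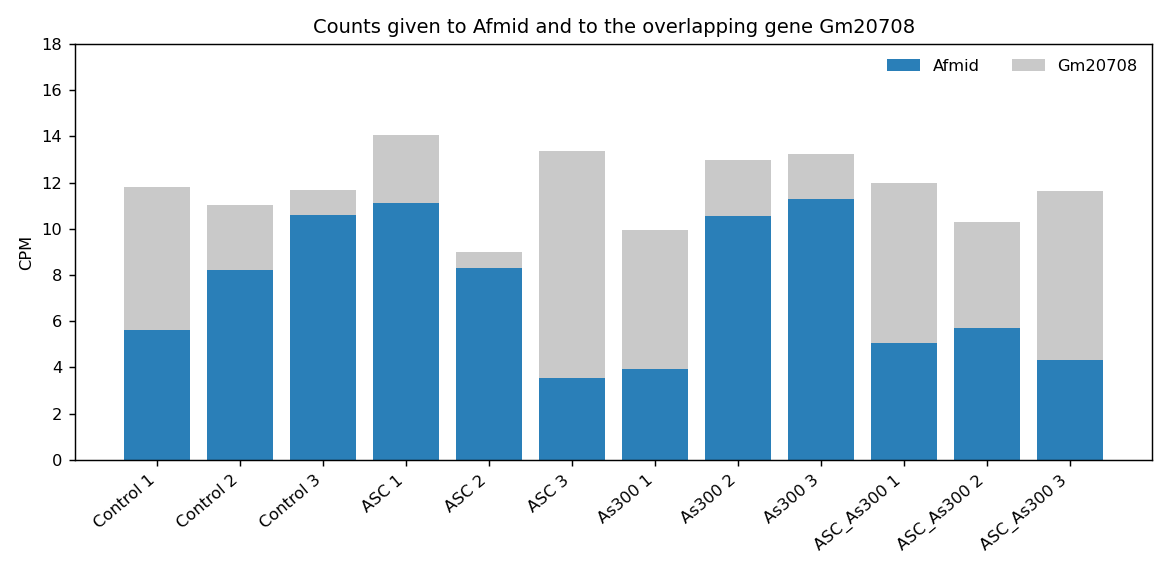
Counts assigned to Afmid (blue) and to the overlapping model Gm20708 (grey) in each tumor, in CPM from 0. The blue parts run from 3.57 to 11.3 CPM while the full bars run from 9.004 to 14.1 CPM.

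The 3 enzymes after kynurenine were not called by edgeR in any tested comparison. Kmo (chr1:175620381-175662116), the hydroxylase, had 6.30, 2.69 and 1.82 CPM in Control, 4.11, 1.98 and 2.03 in ASC, 2.20, 1.25 and 1.45 in As300, and 1.86, 2.51 and 2.08 in ASC_As300. Kynu (chr2:43555329-43682715), the kynureninase, had 1.88, 0.365 and 0 CPM in Control and 0.593 to 1.099 CPM in the 6 tumors with ASC. In As300 its 3 tumors had 0.300, 0.204 and 0.388 CPM, all under the 3 ASC_As300 tumors at 0.893, 0.672 and 0.593, yet the difference of 1.26 had an SE of 1.01 (adjusted p = 0.722 by edgeR), and 11.3% of all genes did not overlap in that direction. Haao (chr17:83831156-83847963), the dioxygenase that makes the precursor of quinolinate, was at 8.02 CPM in Control replicate 1 against 0.204 to 1.69 CPM in the other 11 tumors. Control replicate 1 was thus the highest tumor for Kmo, Kynu, Haao and Tdo2 alike, and it was the tumor with the high B cell and epithelial markers. The part of these cells in the values was not tested. Averaged over both iAs levels, the differences with ASC were -0.01 for Kmo (SE 0.32), 0.70 for Kynu (SE 0.70) and -0.34 for Haao (SE 0.66), with edgeR adjusted p between 0.805 and 0.999. Without Control replicate 1 they were 0.33, 1.70 and 0.98, and none was called.

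Wars (chr12:108860030-108894174, minus strand) was by far the most abundant of the 8 genes per length, at a mean of 23.0 CPM per kb over the 12 tumors, followed by Afmid at 2.08 and Ido1 at 1.01. Kmo was at 0.534 and Ido2 at 0.516 CPM per kb, and Haao, Kynu and Tdo2 were at 0.290, 0.105 and 0.0875. Wars also had the least spread. The ASC tumors were at 89.6, 90.4 and 90.1 CPM (90.0 ± 0.401, SD, n = 3), and the Control tumors at 59.6, 62.9 and 60.2 CPM (60.9 ± 1.77). The As300 tumors were at 61.8, 76.0 and 65.2 CPM (67.7 ± 7.42) and the ASC_As300 tumors at 90.4, 107.0 and 97.0 CPM (98.1 ± 8.35). All 6 tumors with ASC were above all 6 without, as was also the case for Ido1 and Ido2, where 1.68% of all genes tested were separated in this way.

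The averaged difference of Wars with ASC was 0.55 (SE 0.06), or 1.46-fold, with an adjusted p of 0.000273 by edgeR. It passed the adjusted p and missed the 1.5-fold minimum, and without that minimum 3 of the 8 genes passed where 1.77% of all genes did in that direction. The difference was 0.56 between ASC and Control (adjusted p = 0.00801) and 0.54 between ASC_As300 and As300 (adjusted p = 0.0109), both by edgeR and both under 1.5-fold. In the averaged comparison and these 2, Wars was called in 1, 2 and 1 of the 12 fits that left out 1 tumor. Between ASC_As300 and Control the difference was 0.69, or 1.61-fold, and was called (adjusted p = 0.00186 by edgeR). In that last comparison, whose ASC_As300 tumors also entered the choice of genes, 3 of 8 genes were called, where 0.783% of all genes were called up. Ido1 differed there by 4.06 (adjusted p = 0.00565) and Ido2 by 2.57 (adjusted p = 0.00351), both by edgeR, and all 3 were called in every fit that left out 1 tumor.

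Wars was compared with 20 other tRNA synthetase genes, which load other amino acids or, for Wars2, tryptophan in mitochondria. Of these 20, none was called with ASC by edgeR or DESeq2 and 9 had an unadjusted p under 0.05, 5 were higher and 15 lower, and their median difference was -0.05, against 0.00 for all genes tested. The next highest after Wars at 0.55 were Kars at 0.18 (SE 0.07) and Qars at 0.15 (SE 0.07), and the lowest was Iars at -0.20 (SE 0.06, adjusted p = 0.129 by edgeR), followed by Sars at -0.18. Within each tumor, Wars was set against the mean log2 CPM of the other 20. This value was -0.64 to -0.33 in the 6 tumors with ASC (mean -0.53 ± 0.12, SD) and -1.28 to -0.89 in the 6 without (-1.14 ± 0.14). The difference was 0.60, while the mean of the other 20 differed by -0.05. This comparison within tumors was chosen after the values were seen and is given without a test.

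**Figure D4:**
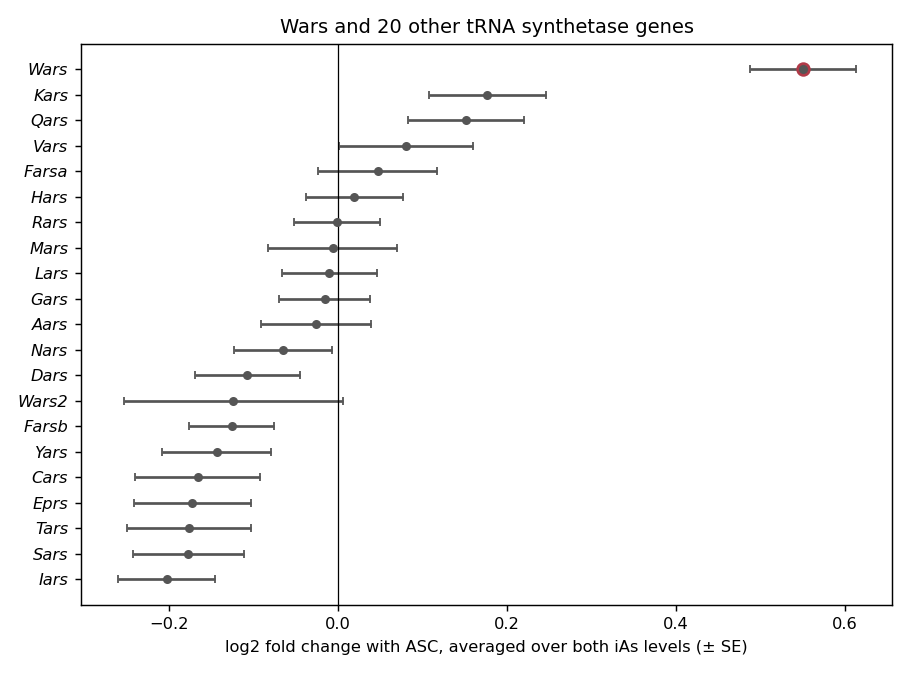
Averaged log2 fold change with ASC (horizontal axis, points with bars of 1 SE, from the edgeR fit of 12 tumors) of Wars, in red, and 20 other tRNA synthetase genes in order of size. Wars is at 0.55 and the others lie between -0.20 and 0.18.

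With iAs and without ASC, edgeR called 0 of the 8 genes, where it called 0.701% of all genes up and 0.355% down. At an unadjusted p under 0.05, 3 of the 8 were lower by 1.5-fold or more (Ido1, Kmo and Haao). The same held for 764 of all 20818 genes. DESeq2 called 1 of the 3, Haao, and of 33928 genes it called 495 up and 321 down. Only Ido1 had its 3 As300 tumors apart from its 3 Control tumors, lower in As300 (15.4% of all genes did not overlap in that direction). The fitted difference was -1.46 (SE 0.65, adjusted p = 0.194 by edgeR). With every As300 tumor at or under 12 counts and the Control tumors at 13 or 14, the difference was -0.16 when counts under 12 were set to 12, so its size could not be measured at this depth. Haao differed by -2.57 (SE 0.97, adjusted p = 0.132) and Kmo by -1.15 (SE 0.45, adjusted p = 0.147), both by edgeR. Without Control replicate 1, Haao differed by 0.10 and Kmo by -0.45. The number of genes called in this comparison over the whole table was itself unstable, from 220 in all 12 tumors to 0 without Control replicate 1, 2 or 3 or ASC_As300 replicate 1 or 3.

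iAs in the presence of ASC is the contrast that the choice of genes used, and it is described without a test. The lowest ASC_As300 tumor had 3.67 CPM of Ido1 and the highest ASC tumor 3.20 CPM, and for Ido2 the corresponding values were 3.08 and 3.05 CPM. These were the 2 of 8 genes whose groups did not overlap, both higher in ASC_As300, where 4.17% of all genes tested lay apart in that direction. The fitted differences were 1.05 for Ido1 (SE 0.53) and 0.68 for Ido2 (SE 0.34). Over the fits that left out 1 tumor, that of Ido1 ran from 0.75 without ASC replicate 3 to 1.36 without ASC replicate 1. Wars differed by 0.12 (SE 0.09), and the other 5 genes by between -0.61 and -0.17 with overlapping groups. The difference of differences, iAs with ASC minus iAs without, was 2.51 for Ido1 (SE 0.84) and 1.30 with counts under 12 set to 12. It was 0.20 for Ido2 (SE 0.49) and -0.03 for Wars (SE 0.12).

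**Figure D5:**
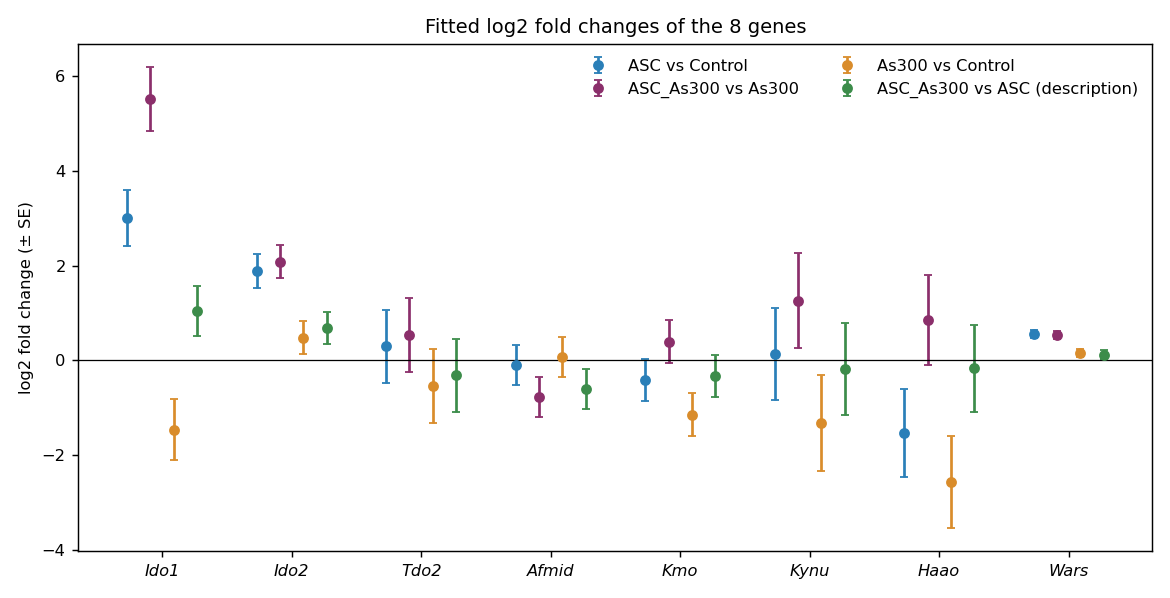
Fitted log2 fold changes of the 8 genes (vertical axis, points with bars of 1 SE) in 4 comparisons from the fit of all 12 tumors. Ido1 and Ido2 are high in both comparisons of tumors with against without ASC (3.02 and 5.52 for Ido1), Wars has the shortest bars, and the bars of Tdo2, Kynu and Haao are wide.

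Of 12 genes listed for interferon gamma signalling to Ido1, 6 were called up in the averaged comparison with ASC, where edgeR called 1.36% of all genes up. The count was 6 also without Control replicate 1. The list holds the cytokine, its receptor, kinases, transcription factors, feedback inhibitors and other targets, and also Bin1, which belongs to none of these classes. The differences of all 12 were above 0 (median 0.51, against 0.00 for all genes), but those of the receptor genes Ifngr1 and Ifngr2 were only 0.06 and 0.07, and that of Jak1 was 0.03. The cytokine itself, Ifng, differed by 3.63 (adjusted p = 0.00385), from 0.140 ± 0.0785 CPM in Control and 0.235 ± 0.211 in As300 to 2.09 ± 0.324 in ASC and 2.53 ± 0.875 in ASC_As300. The transcription factors Irf1 and Irf8 differed by 1.57 (adjusted p = 1.37e-06) and 0.69 (adjusted p = 0.0477). The feedback inhibitor Socs1 differed by 1.096 (adjusted p = 0.000312), and Cd274, which encodes the checkpoint ligand PD-L1, by 1.70 (adjusted p = 3.20e-05). These adjusted p-values are from edgeR. With iAs alone edgeR called none of the 12, DESeq2 called 1, Socs1, and 6 had an unadjusted p under 0.05, and the 2 with the smallest p were Bin1 at 0.31 and Socs1 at 0.73. Of all 20818 genes, 1514 passed that p in this comparison with a 1.5-fold minimum added. The number without that minimum is not given here, so the 6 of 12 cannot be set against it.

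In the averaged comparison with ASC, no gene of 4 lists of neighbouring processes was called by edgeR or DESeq2. Of 8 tested genes of the kynurenine side branch and of NAD synthesis, none was called with ASC (3 higher, 5 lower, median -0.01, 1 at an unadjusted p under 0.05), and Kyat1 and Nmnat1, with the smallest p, were at -0.36 and -0.31. Of 13 genes of tryptophan uptake and its other fates none was called (5 higher, 8 lower, median -0.02, 1 at an unadjusted p under 0.05), and the amino acid transporter gene Slc7a8 came nearest at 0.47 (adjusted p = 0.0813 by edgeR), ahead of Il4i1 at -0.90. The aryl hydrocarbon receptor binds kynurenine, and of 6 tested genes of this receptor and its targets none was called (1 higher, 5 lower, median -0.10, 0 at an unadjusted p under 0.05), with Arnt at -0.11 and Ahrr at 0.64. Of 11 genes of the response to amino acid shortage none was called (4 higher, 7 lower, median -0.11, 3 at an unadjusted p under 0.05), with Asns at -0.20 and Chac1 at -0.52.

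With iAs alone these 4 lists gave 1 call by edgeR and by DESeq2, the transcription factor Cebpb, which was higher by 1.09 (adjusted p = 0.0356 by edgeR). In that comparison edgeR called 0.701% of all genes up. Cebpb was also called up against the same Control tumors in ASC, by 0.80 (adjusted p = 0.0278), and in ASC_As300, by 0.75 (adjusted p = 0.0336), both by edgeR. The uptake transporter Slc7a5 was at 0.33 and Ddc at 2.61, Kyat3 was at -0.33, and Tiparp and Ahrr of the receptor list were at -0.34 and -1.83, none of them called. All 6 tested genes of the receptor list were below 0 in As300 against Control, with a median of -0.35, and also in ASC against Control, which shares the Control tumors, with a median of -0.30. All 6 were above 0 in ASC_As300 against As300, which shares the As300 tumors with As300 against Control, with a median of 0.11, and none was called. Of the 20 other synthetases none was called with iAs alone by edgeR or DESeq2 and 6 had an unadjusted p under 0.05, and Eprs and Dars, with the smallest p, were at -0.38 and -0.28.

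Dendritic cells and macrophages can express Ido1. Of 13 dendritic cell markers 9 were higher with ASC and 2 were called, Itgax at 0.97 and Batf3 at 0.81, with no marker at 0 in any group. Of all genes tested, 1.36% were called up in that comparison. Summed, the dendritic cell markers were at 352.4 to 400.6 CPM in Control, 414.8 to 498.1 in As300, 464.1 to 522.5 in ASC and 452.3 to 544.5 in ASC_As300. The As300 sums overlapped those of both groups with ASC. Most of each sum came from Fscn1 and Sirpa, so the sums say little about the rarer markers. Mean Fscn1 was 187.4 CPM in Control, 259.2 in As300, 253.7 in ASC and 241.8 in ASC_As300. Mean Sirpa was 119.2, 124.2, 155.9 and 163.5 CPM in the same order. Of 10 macrophage markers 8 were higher with ASC and 2 were called, C1qb at 0.61 and Fcgr1 at 1.02, against the same 1.36% of all genes. The sums of the 10 were 768 to 1072 CPM in Control, 1035 to 1064 in As300, 1082 to 1514 in ASC and 1175 to 1373 in ASC_As300. With iAs alone, Cd14 was called at 0.59, where 0.701% of all genes were called up. The part of these cells in the Ido1 difference was not tested.

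T cells are the main source of interferon gamma together with NK cells. Of 9 T cell markers 8 were higher with ASC and 1 was called by edgeR, Cd8a at 2.20 (adjusted p = 0.0381), where edgeR called 1.36% of all genes up. DESeq2 called 3 of the 9, Cd3d, Cd8a and Cd8b1. Without Control replicate 1 the count called by edgeR was 7, and it was 0 without Control replicate 2 or 3, ASC replicate 1, 2 or 3, As300 replicate 1, 2 or 3, or ASC_As300 replicate 1 or 3. Their sum was 82.4 CPM in Control replicate 1 and 16.4 and 14.8 CPM in Control replicates 2 and 3, 12.8 to 18.4 in As300, 51.5 to 68.0 in ASC and 43.4 to 70.3 in ASC_As300. With iAs alone all 9 were below 0 (median -1.33), edgeR called 0, DESeq2 called 2, Cd5 and Cd8a, and 3 had an unadjusted p under 0.05. The Control group of this comparison holds Control replicate 1, while the sums of Control replicates 2 and 3 lay within the As300 range. The part of T cells in the Ido1 difference was not tested. Of 6 epithelial markers Krt8 was called down with ASC at -2.03, where edgeR called 0.0865% of all genes down. Of the 8 B and plasma cell, 6 endothelial, 7 fibroblast and ASC and 7 mast cell markers none was called with ASC or with iAs alone by edgeR or DESeq2, nor were the 2 of 8 hepatocyte markers that could be tested. At an unadjusted p under 0.05, all 8 B and plasma cell markers were lower in As300 than in Control, a group that holds Control replicate 1.

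The genes whose level was most like that of Ido1 over the 12 tumors, by Pearson correlation of log2 CPM, were Gbp2b (0.96), Gm15931 (0.96), Crybg1 (0.94), Fpr2 (0.94), Parp9 (0.94), Mpeg1 (0.94), Erap1 (0.93) and Pip4k2a (0.93). The 12 points share the split by ASC, so the correlation within the 6 tumors with ASC was computed as well. Those 6 tumors still hold the split between ASC and ASC_As300, which the choice of genes used and in which Ido1 did not overlap. Within them the correlation was 0.88 for Gm15931, 0.78 for Pip4k2a, 0.72 for Mpeg1, 0.63 for Crybg1 and 0.51 for Gbp2b, but 0.01 for Fpr2, -0.03 for Parp9 and 0.07 for Erap1. Among genes already named, Cd274 was at 0.90 both over the 12 tumors and within the 6 with ASC, and Irf1 was at 0.91 over the 12 but -0.05 within the 6. Wars was at 0.87 over the 12 and 0.35 within the 6, Ido2 at 0.85 and 0.45, and Ifng at 0.78 and 0.34. Cd274, like Ido1, lay apart between ASC (27.0 to 31.4 CPM) and ASC_As300 (33.1 to 35.1 CPM). Within the 6 tumors without ASC, Ido1 was near the limit of detection. There the 8 genes were between 0.48 and 0.84, Irf1 was at 0.19, Cd274 at 0.16, Wars at -0.01, Ido2 at -0.20 and Ifng at -0.45. The other 5 enzymes were between -0.17 and 0.43 over the 12. By Spearman correlation, 1 of these 8 genes was again among the 8 highest.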

How the data were processed

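The authors deposited 1 table of whole-number counts per Ensembl gene for the 12 tumors, without normalization. According to the submitters' processing notes, the tools were cutadapt 1.1.0, HISAT2 2.0, StringTie 1.3.4, DESeq2 and edgeR. Libraries were strand-specific and poly(A)-selected. The study's methods describe quantification with StringTie and Ballgown as FPKM. The step that gave the deposited whole-number counts, its use of strand, the genome build and the number of counts per read pair were not given in the sources used here. Per tumor, 618 to 795 genes had 3 counts, 1137 to 1298 had 4 and 380 to 414 had 5.

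Gene symbols were found for 55141 of 55401 Ensembl IDs. Positions and exon lengths came from GENCODE M21 (GRCm38), and coding sequences of Ido1 and Ido2 were read from that annotation. R 4.3.3 with edgeR 4.0.16 was used. Genes were filtered by filterByExpr (20818 kept), scaled by TMM (factors 0.9535 to 1.054) and fitted with 1 mean per group over all 12 tumors in a quasi-likelihood model (common dispersion 0.1081). Adjusted p-values are Benjamini-Hochberg values over all 20818 genes. Each SE is the absolute log2 difference divided by the square root of its quasi-likelihood F statistic, also for the differences described without a test. Log2 CPM carry a prior count of 2. The labels do not say whether a library holds more than 1 mouse, so p-values measure the spread between these libraries. An exact test of 3 against 3 cannot give a p under 0.1, so p-values come from the fitted model.

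The 8 genes, the 15 lists of other genes and the tests were chosen with earlier results of these data known. Named genes are the 8, the 8 with the highest correlation with Ido1, and, of each list, the called genes (at most 6) or else the 2 with the smallest p. Kars and Qars were named in addition, with their values known, as the next highest synthetases. Fscn1 and Sirpa were named in the same way, as the largest parts of the dendritic cell sums. Values of 1 called gene of these lists are not reported here. Ddit3, which has 2 IDs, was left out of its list. Counts of list genes at an unadjusted p under 0.05 carry no fold minimum, and the matching shares of all genes are not given here. Alternatives were the DESeq2 1.42.0 Wald test, DESeq2 size factors, no filter, a minimum of 10 counts in all tumors, dropping the fold minimum, unadjusted p, the 6 tumors compared alone, the replicate number in the model, counts divided by 4, sums by symbol, longest transcripts, Spearman correlation and leaving out each tumor. The sum of Afmid and Gm20708 and the Wars comparison within tumors were added after seeing the data. The fit was also run on simulated counts with known changes, placed only in genes above a minimum mean level and with the same dispersion for every gene. That run did not cover changes in genes with few counts, or an outlying tumor.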

Additional observations from a re-analysis of the deposited data

Results flagged for a closer look

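Ido1 was picked out because its iAs difference had opposite signs without and with ASC: all 3 As300 tumors were below all 3 Control tumors, and all 3 ASC_As300 tumors were above all 3 ASC tumors. The difference of differences was 2.51 on the log2 scale. It was not tested, since the choice of genes used the ASC_As300 and ASC tumors, and the As300 tumors were at or under 12 counts. With counts under 12 set to 12 it was 1.30. No group had the 4 tumors needed to look for an outlying library.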

How the results depend on the processing

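The calls of Ido1 and Ido2 with ASC over both iAs levels were kept under all alternatives that tested them. With at least 10 counts in every tumor Ido1 was not tested, and 1 of the 8 genes was called in the averaged comparison, in ASC against Control and in ASC_As300 against As300. ASC against Control gave 1 call in the fit of the 6 tumors compared, 0 to 3 over the fits without 1 tumor, and ASC_As300 against As300 gave 1 to 2. In As300 against Control, DESeq2 called 1 gene (Haao) and unadjusted p-values 3. Same-numbered tumors did not deviate together (18 pairs, correlations -0.12 to 0.17, 4 of 12 tumors closest to their own number). This cannot tell whether same-numbered tumors were handled together. With the replicate block in the model, calls over all genes moved from 301 to 285 in the averaged comparison and from 150 to 148 in ASC against Control. In ASC_As300 against As300 they moved from 178 to 152, and the members called in ASC against Control moved to 1. Signs turned only in comparisons where the edgeR fit of all 12 tumors did not call the gene, which include Haao in As300 against Control. Under the replicate block, the averaged difference was 0.076 for Kmo and 0.17 for Haao, and ASC_As300 against Control gave 0.47 for Tdo2 and 0.39 for Kynu. Over the fits without 1 tumor, the averaged difference ran from -0.22 to 0.33 for Kmo and from -0.61 to 0.98 for Haao. ASC against Control ran from -0.82 to 0.27 for Kmo, -2.08 to 1.12 for Haao, -0.43 to 2.14 for Kynu, -0.14 to 1.60 for Tdo2 and -0.44 to 0.25 for Afmid, which was 0.079 when summed with Gm20708. As300 against Control ran from -0.97 to 0.77 for Tdo2, -0.15 to 0.42 for Afmid, -1.87 to 0.70 for Kynu and -3.05 to 0.10 for Haao. ASC_As300 against Control ran from -0.45 to 1.29 for Tdo2, -0.62 to 1.95 for Kynu and -2.21 to 0.94 for Haao. The cause was not tested. Over all genes, DESeq2 called 478 against 301 by edgeR in the averaged comparison, 450 against 150 in ASC against Control, 399 against 178 in ASC_As300 against As300, 390 against 168 in ASC_As300 against Control, 11 against 0 in ASC_As300 against ASC and 174 against 0 in the interaction. ASC against Control gave 89 in the fit of the 6 tumors compared. As300 against Control gave 220 by edgeR, 816 by DESeq2, 8 without a filter, 454 with at least 10 counts in every tumor, 460 with counts divided by 4 and 593 without a minimum fold. Without 1 tumor the counts ran from 105 to 355 in ASC against Control, 95 to 277 in ASC_As300 against As300, 0 to 399 in As300 against Control and 90 to 203 in ASC_As300 against Control. Depth limits Ido1 in tumors without ASC (0 to 14 counts) and Tdo2 (4 to 37 counts). Per length, the longest transcript in place of merged exons gave 3.16 CPM per kb for Afmid and 0.233 for Kynu.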
